A study of Rattus norvegicus with 19 samples.

Results

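The 4 mature miRNAs described here, rno-miR-451-5p, rno-miR-144-3p, rno-miR-144-5p and rno-miR-486, are those best known from red blood cells. They were picked by name from the 748 mature miRNAs counted in rat plasma. The rule used no measured value, but earlier results of these data were known when it was made. Small RNA-Seq was run on tail-vein plasma of adult Sprague-Dawley rats on day 2 after lateral fluid-percussion injury, a pressure pulse on the exposed dura that causes traumatic brain injury (TBI). The groups were 5 rats with severe TBI (sTBI), 5 with mild TBI (mTBI), 5 sham-operated controls and 4 naive rats, with 1 library per rat. Sham-operated controls had the anesthesia, the opening of the skull and the postoperative analgesic of the injured rats but no pulse, and naive rats had isoflurane anesthesia alone. The rats were male, and the RNA of each came from pooled plasma aliquots of that rat. Each library is therefore a separate animal. The question asked of each comparison was whether injury, its severity or surgery went with more or less red-cell miRNA in plasma, and how much the libraries differed in it whatever the group.

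Mature red cells have no nucleus but keep miRNAs made while they developed, and these pass into plasma when cells lyse during or after blood sampling. miR-144 and miR-451 are cut from 1 transcript that the factor GATA1 drives in the erythroid lineage. miR-144 is processed in the usual way by Drosha and then Dicer, while the short hairpin of miR-451 skips Dicer and is cut by Argonaute 2. miR-486 lies in an intron of Ank1, the gene of a red-cell membrane skeleton protein, and is also abundant in striated muscle. Because miR-451 is plentiful in red cells and miR-23a-3p is not, the balance of this pair is a common laboratory measure of hemolysis. It was the one the study used by qPCR, where no pooled plasma sample counted as hemolyzed. By absorbance, the study's other measure, a part of the pooled samples lay above its hemolysis threshold.

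The mature sequences of 3 of the 4 miRNAs were found in RefSeq (build GRCr8) and are shown because the counts below are counts of these molecules. Capitals mark the seed, bases 2 to 8 from the 5′ end, which chooses a miRNA's targets. The last pair, miR-101a-3p and miR-101b-3p, belongs to the list of other red-cell miRNAs used below and is shown for its likeness to miR-144-3p.
miR-451-5p: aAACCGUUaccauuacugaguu
miR-144-3p: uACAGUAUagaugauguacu
miR-144-5p: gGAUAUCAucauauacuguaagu
miR-101a-3p: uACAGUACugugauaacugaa
miR-101b-3p: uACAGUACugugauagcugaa
The 3 erythroid seeds differed from each other, and none of the other rat miRNAs in the table of 693 mature sequences had the same bases 2 to 8. miR-144-3p shared bases 2 to 7 with both miR-101 miRNAs, which differ from it at the last seed base (U8C, counted from 1 at the 5′ end of miR-144-3p). Beyond the seed these sequences part. The last alignment step behind the deposited counts allowed up to 2 mismatches, so a count can hold reads that differ from the printed sequence.

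Both hairpins stand on the plus strand of chromosome 10, Mir144 at chr10:63459397-63459479 and Mir451a at chr10:63459569-63459640, with 89 bases between them in GRCr8. They are shown because they differ in how the mature strand sits in the stem. Capitals mark the mature strands of the 3 miRNAs counted.
Mir144: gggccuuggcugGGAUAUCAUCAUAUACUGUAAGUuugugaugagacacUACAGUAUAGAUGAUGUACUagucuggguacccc
Mir451a: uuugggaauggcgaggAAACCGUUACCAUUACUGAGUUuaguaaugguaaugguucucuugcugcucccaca
In Mir144, of 83 bases, the 5p strand covered bases 13 to 35 and the 3p strand bases 50 to 69, with 14 bases between them and no base of either in the terminal loop of the predicted fold. In Mir451a, of 72 bases, miR-451-5p covered bases 17 to 38, and its last 4 bases made up the predicted loop at bases 35 to 38. The mature strand of miR-451 thus ran into the loop of its hairpin in this prediction, and those of miR-144 stopped short of theirs.

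Every count is of unique molecular indices (UMIs), random tags that let PCR copies of 1 molecule be counted once. The libraries held 2409545 to 5866757 miRNA UMIs, with 1.19 to 2.24 reads per UMI. Levels are given as UMIs per 1000000 miRNA UMIs of the library (CPM), and no length scaling was needed since a UMI counts a whole short RNA. Naive 1 and 3 and mTBI 2 and 5 had stood apart from the other 15 libraries in earlier work on these data, with 12.6 to 16.8 miRNA UMIs per spike-in UMI against 5.53 to 9.37. They were picked there by the first principal component, the main axis of variation between libraries, and no label marks them. A miRNA level that sets them apart is therefore no independent finding. Fold changes of each member without these 4 libraries, which leaves 3 mTBI and 2 naive rats, are given beside the main ones. In plasma, fewer red cells lysed and less RNA from each of them cannot be told apart. All 5 marker lists used here (red cell, leukocyte, platelet, liver and striated muscle) were represented, with no marker at 0 over any group.

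The levels of the 4 miRNAs covered 3 orders of magnitude. miR-486 averaged 76381 ± 31311 CPM (SD, n = 19), rank 2 of 748 after miR-16-5p. miR-451-5p averaged 1906 ± 737 CPM and ranked 54. The strands of miR-144 were scarce, miR-144-5p at 86.2 ± 29.2 CPM (rank 191) and miR-144-3p at 68.1 ± 17.8 CPM (rank 209). Although miR-144 and miR-451 come from 1 transcript, each library held 18.8 to 51.6 times as many UMIs of miR-451-5p as of miR-144-3p. miR-451-3p, the opposite side of the miR-451 hairpin, averaged 21.6 ± 4.79 CPM, and miR-451-5p had 39.9 to 187 times its UMIs. The members rested on 1917 to 11699 UMIs per library for miR-451-5p, 112602 to 391042 for miR-486, and 102 or more for either strand of miR-144, with at most 393 for miR-144-3p and 560 for miR-144-5p.

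The coefficient of variation (SD as a percent of the mean) over the 19 libraries was 41.0% for miR-486, 38.7% for miR-451-5p, 33.9% for miR-144-5p and 26.2% for miR-144-3p. Counting UMIs alone would give 0.212, 1.33, 6.13 and 6.73% for the same 4 miRNAs. The median over the 610 miRNAs counted in every library was 32.6%. Of the variance of log2 CPM, the 4 groups took up 12.0% for miR-486, 1.96% for miR-451-5p, 12.3% for miR-144-5p and 4.22% for miR-144-3p, against a median of 24.04% over those 610 miRNAs. Rats of 1 group thus differed in these miRNAs far more than the group means did.

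**Figure D1:**
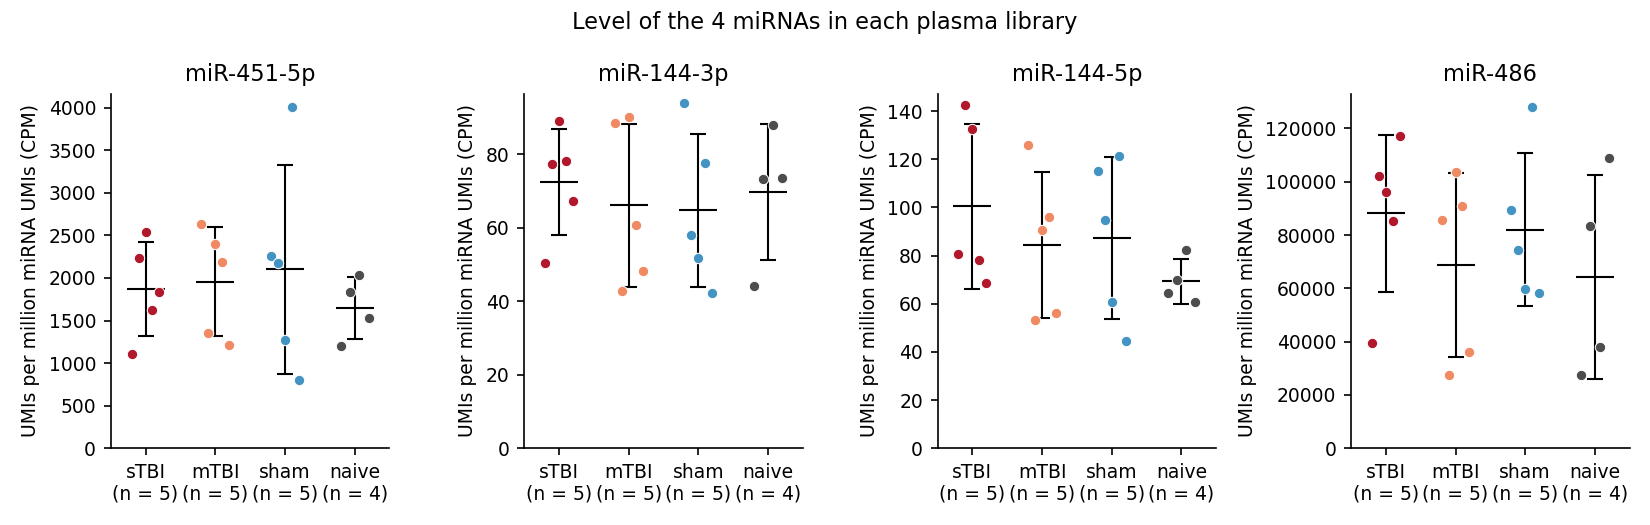
Each point is 1 library, with CPM on the y axis from 0, the 4 groups on the x axis, and bars for the mean ± SD. The groups overlap in all 4 panels, and sham holds both the highest and the lowest miR-451-5p value, 4008 and 796 CPM.

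miR-451-5p, the red-cell miRNA most used to grade hemolysis, had its lowest and its highest library within the sham-operated controls. Libraries 1 to 5 had 1106, 2229, 2543, 1629 and 1833 CPM after sTBI and 2631, 1357, 2401, 2193 and 1208 CPM after mTBI. Sham-operated controls had 2255, 2172, 1272, 4008 and 796 CPM, and naive rats had 1197, 1830, 2034 and 1529 CPM. Sham 4 was thus 5.04 times sham 5, and all the injured and naive rats lay between them. The group means were 1868 ± 553 CPM after sTBI (SD, n = 5), 1958 ± 638 CPM after mTBI (n = 5), 2100 ± 1230 CPM in sham-operated controls (n = 5) and 1648 ± 365 CPM in naive rats (n = 4).

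Group differences were tested with edgeR's quasi-likelihood model on the UMI counts of the 713 miRNAs with enough counts, after scaling the libraries by TMM (trimmed mean of M-values), with p-values adjusted over all 713 by the Benjamini-Hochberg method and a threshold of 0.05. For miR-451-5p the log2 fold change was -0.17 in sTBI over naive rats (SE 0.36, adjusted p = 0.823), which is 0.889-fold with a 95% interval of 0.531 to 1.49. It was 0.12 in mTBI over naive rats (SE 0.36, adjusted p = 0.961) and 0.05 in sham-operated controls over naive rats (SE 0.36, adjusted p = 0.962). Against sham-operated controls it was -0.21 after sTBI (SE 0.34, adjusted p = 0.995) and 0.08 after mTBI (SE 0.34, adjusted p = 0.915). Between the injured groups it was -0.29 in sTBI over mTBI (SE 0.34, adjusted p = 0.670), or 0.817-fold with an interval of 0.502 to 1.33. No comparison of miR-451-5p passed, and over the 6 comparisons the intervals ran from 0.502-fold to 1.82-fold. Without the 4 libraries that stood apart, the log2 fold change over naive rats was 0.05 after sTBI, 0.52 after mTBI and 0.25 in sham-operated controls, and that of sTBI over mTBI was -0.47 (edgeR, lowest adjusted p of the 4 values 0.839).

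miR-144-3p, the strand of the cluster's other miRNA that is usually taken as the guide, had a narrower range than miR-451-5p. Libraries 1 to 5 had 50.5, 77.2, 89.0, 78.1 and 67.1 CPM after sTBI and 88.4, 42.9, 90.0, 60.8 and 48.1 CPM after mTBI. Sham-operated controls had 93.9, 58.0, 51.9, 77.6 and 42.3 CPM, and naive rats had 44.0, 73.2, 88.0 and 73.6 CPM. Each group reached from near 50 CPM or below to near 90 CPM. The lowest adjusted p of any member in the 6 comparisons was that of miR-144-3p in sham-operated controls over naive rats, at -0.40 on the log2 scale (SE 0.27, adjusted p = 0.448), which is 0.759-fold with an interval of 0.512 to 1.13. After sTBI it was -0.30 (SE 0.27, adjusted p = 0.519) and after mTBI -0.19 (SE 0.27, adjusted p = 0.961), both over naive rats. The values over sham-operated controls were 0.09 after sTBI (adjusted p = 0.995) and 0.21 after mTBI (adjusted p = 0.676), and the value of sTBI over mTBI was -0.12 (adjusted p = 0.833). The size depended on the scaling. In sham-operated controls over naive rats it was -0.10 with total miRNA UMIs in place of TMM and -0.48 with spike-in totals. Without the 4 libraries that stood apart, miR-144-3p had -0.14 after sTBI, 0.12 after mTBI and -0.23 in sham-operated controls over naive rats, and none passed (edgeR, lowest adjusted p of the 3 values 0.913).

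miR-144-5p, the other strand of the same hairpin, spread more widely in the operated groups than in naive rats on the CPM scale only. Libraries 1 to 5 had 80.7, 142, 132.8, 78.1 and 68.7 CPM after sTBI and 126, 53.1, 90.8, 95.9 and 56.2 CPM after mTBI. Sham-operated controls had 115, 94.8, 60.7, 121 and 44.4 CPM, and naive rats had 64.3, 69.8, 82.1 and 60.8 CPM. The highest naive library lay below 2 or 3 libraries of each operated group, and every operated group also had a library below that naive value. The group means were 101 ± 34.3 CPM after sTBI, 84.4 ± 30.3 CPM after mTBI, 87.2 ± 33.6 CPM in sham-operated controls and 69.3 ± 9.36 CPM in naive rats. Per 1000 spike-in UMIs the spread was instead widest in naive rats, at 0.739 ± 0.373 UMIs. On that scale the means were 0.673 ± 0.261 after sTBI, 0.817 ± 0.116 after mTBI and 0.701 ± 0.332 in sham-operated controls. The difference in spread was not tested. The log2 fold changes of the 6 comparisons lay between 0.01 (sTBI over mTBI, adjusted p = 0.987) and 0.16 (sTBI over naive rats, SE 0.30, adjusted p = 0.806, interval 0.721 to 1.72-fold), and none passed. Without the 4 libraries that stood apart the values over naive rats were 0.50 after sTBI, 0.66 after mTBI and 0.36 in sham-operated controls, and that of sTBI over mTBI was -0.17, none of which passed (edgeR, lowest adjusted p of the 4 values 0.856).

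miR-486 took the largest share of the 4, and its share differed several-fold between libraries of 1 group. It made up 3.95, 10.2, 9.63, 8.53 and 11.7% of the miRNA UMIs of libraries 1 to 5 after sTBI, and 8.55, 2.75, 10.3, 9.10 and 3.603% after mTBI. In sham-operated controls it was 8.93, 7.45, 5.96, 12.8 and 5.82%, and in naive rats 2.74, 8.32, 3.81 and 10.9%. The libraries at the low end were naive 1 and 3, mTBI 2 and 5 and sTBI 1, the first 4 being those that stood apart, with 2.74 to 3.81% against 3.95 to 12.8% in the other 15. The log2 fold change was 0.25 in sTBI over naive rats (SE 0.38, adjusted p = 0.743, 1.19-fold, interval 0.689 to 2.05), 0.06 in mTBI over naive rats (adjusted p = 0.964) and 0.17 in sham-operated controls over naive rats (adjusted p = 0.833). Against sham-operated controls it was 0.08 after sTBI (adjusted p = 0.995) and -0.11 after mTBI (adjusted p = 0.892), and sTBI over mTBI gave 0.19 (adjusted p = 0.808). Without the 4 libraries that stood apart 5 of these 6 values took the opposite sign, with -0.23 in sTBI (adjusted p = 0.918), -0.06 in mTBI (adjusted p = 0.988) and -0.32 in sham-operated controls (adjusted p = 0.913) over naive rats, 0.26 in mTBI over sham-operated controls (adjusted p = 0.882) and -0.17 in sTBI over mTBI (adjusted p = 0.935), all from edgeR.

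**Figure D2:**
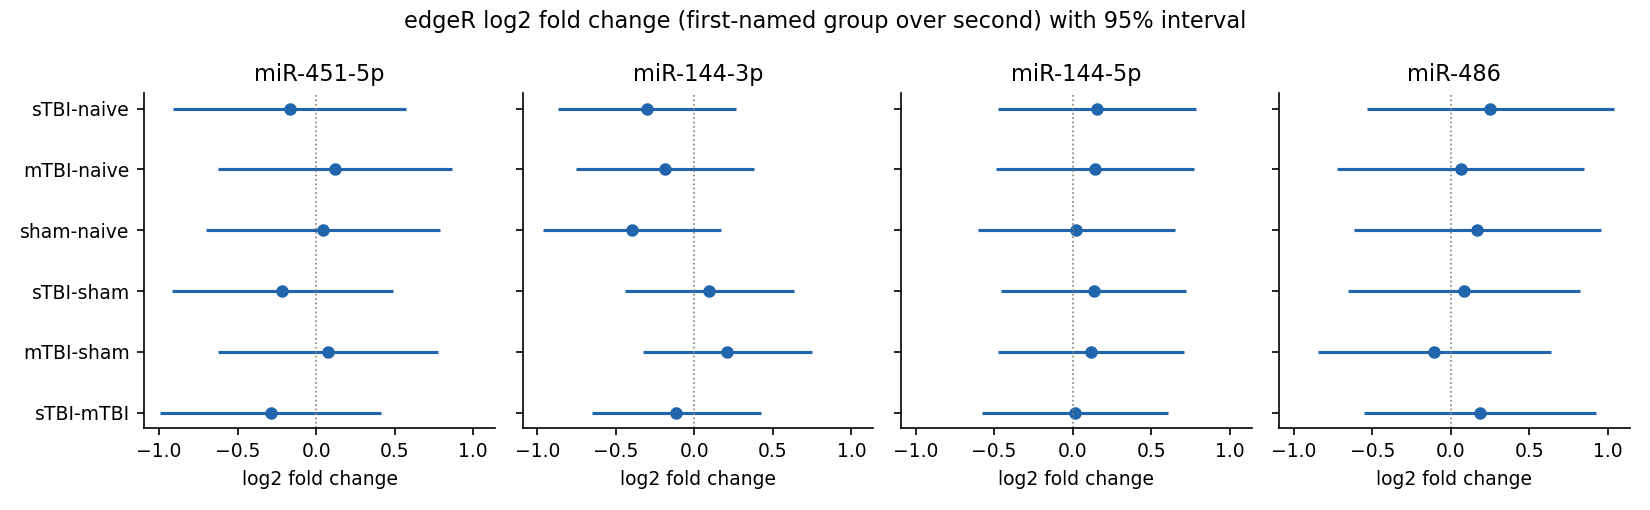
Points are edgeR log2 fold changes of the first-named group over the second, with 95% intervals as lines, for 6 comparisons of each miRNA. All 24 intervals cross 0, and the points lie between -0.40 and 0.25.

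edgeR called 0 of the 4 miRNAs in sTBI over naive rats, where it called 4.91% of all 713 miRNAs tested, and 0 of 4 in mTBI and in sham-operated controls over naive rats, where it called 2.38% each. It called 0 of 4 in sTBI over sham-operated controls (2.10% of all), 0 of 4 in mTBI over sham-operated controls (0.140%) and 0 of 4 in sTBI over mTBI (3.23%). The test for any difference among the 4 groups called 0 of 4 as well, with 4.63% of all miRNAs called. DESeq2 called 0 of 4 in each comparison too. At an unadjusted p under 0.05 edgeR called 0 of the 4 in every comparison. At that threshold it called 23.6% of all miRNAs in sTBI, 7.15% in mTBI and 19.6% in sham-operated controls over naive rats, 7.57% in sTBI and 11.4% in mTBI over sham-operated controls, 17.4% in sTBI over mTBI and 19.5% in the test over the 4 groups. A count of 0 of 4 is near the adjusted background shares and is no result about these 4 miRNAs in itself. The direction of the small fold changes moved with the scaling. With total miRNA UMIs in place of TMM, the median over all 713 miRNAs in sTBI over naive rats was 0.36 (0.03 with TMM) and miR-451-5p stood at 0.18, still below that median.

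The hemolysis balance was followed in each library as the log2 of miR-451-5p UMIs over miR-23a-3p UMIs, which needs no scaling of the library. It was -3.45, -2.15, -2.21, -2.88 and -2.37 in libraries 1 to 5 after sTBI and -1.91, -3.42, -2.20, -2.38 and -3.47 after mTBI. Sham-operated controls had -2.26, -2.65, -3.25, -1.29 and -3.83, and naive rats had -3.81, -2.89, -2.73 and -2.63. miR-23a-3p outnumbered miR-451-5p in every library, and sham 4 and sham 5 were again the extremes, with 0.409 and 0.0701 miR-451-5p UMIs per miR-23a-3p UMI. The group means were -2.61 ± 0.55 after sTBI, -2.68 ± 0.72 after mTBI, -2.66 ± 0.97 in sham-operated controls and -3.01 ± 0.54 in naive rats (SD, n = 5, 5, 5 and 4). The ratio did not pass over the 4 groups (Kruskal-Wallis statistic tested by permutation, 100000 resamples, p = 0.740, adjusted p = 0.740 over the 4 ratios tested). miR-23a-3p itself was at 11917 ± 1943 CPM with a coefficient of variation of 16.3%, so most of the spread of the ratio lay in miR-451-5p. Sequencing ratios and qPCR cycle differences are on different scales, and no hemolysis cut-off was applied to these values.

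**Figure D3:**
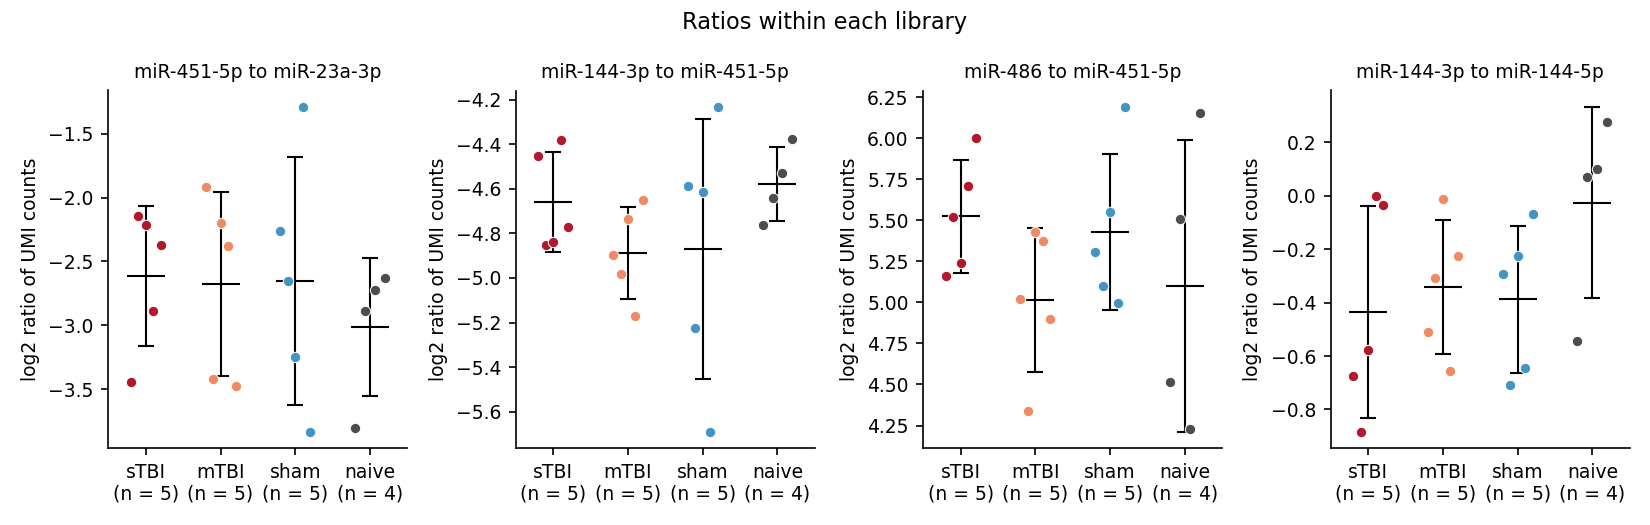
Each point is the log2 ratio of UMI counts of the named pair within 1 library, by group, with bars for the mean ± SD. Groups overlap in all 4 panels. The miR-451-5p/miR-23a-3p ratio reaches from -3.83 to -1.29, both in sham.

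The 2 members of 1 transcript did not keep a fixed proportion across rats, and no group difference in it passed. The log2 ratio of miR-144-3p to miR-451-5p averaged -4.66 ± 0.22 after sTBI, -4.89 ± 0.21 after mTBI, -4.87 ± 0.58 in sham-operated controls and -4.58 ± 0.17 in naive rats (SD, n = 5, 5, 5 and 4). Sham 4 had the lowest ratio at -5.69 and sham 5 the highest at -4.23, the reverse of their order in miR-451-5p. Since miR-451-5p is the divisor of this ratio, a high value of it lowers the ratio by itself. Over the 4 groups the permutation test gave p = 0.342 (adjusted p = 0.539). The pair with the smallest p was mTBI against naive rats, a difference of -0.31 in mTBI minus naive (exact two-sided permutation test, p = 0.0635, adjusted p = 0.635 over 24 tests of 4 ratios and 6 pairs). The smallest p such a test allows is 0.0159 for 5 against 4 rats and 0.00794 for 5 against 5.

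The log2 ratio of miR-486 to miR-451-5p, 2 red-cell miRNAs from different genes, averaged 5.53 ± 0.34 after sTBI, 5.01 ± 0.44 after mTBI, 5.43 ± 0.48 in sham-operated controls and 5.10 ± 0.89 in naive rats. A library held 18.7 to 73.1 UMIs of miR-486 for each of miR-451-5p. The 4 libraries that stood apart had the lowest log2 ratios, 4.23 to 4.90, and the other 15 had 5.00 to 6.19. Since the 4 were picked from these same data, this split is a description only. Over the 4 groups the permutation test gave p = 0.404 (adjusted p = 0.539), and the smallest pairwise p was that of sTBI minus mTBI, a difference of 0.51 (exact permutation test, p = 0.0714, adjusted p = 0.635). Without the 4 libraries that stood apart this difference was 0.25. The difference from naive rats, 0.42 after sTBI and 0.33 in sham-operated controls with all libraries, was then -0.30 after sTBI and -0.40 in sham-operated controls, and the test over the 4 groups gave adjusted p = 0.546 by permutation.

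The strands of miR-144 can be compared within the hairpin, since both are cut from it. Of the UMIs of both strands, miR-144-3p made 38.5, 35.1, 40.1, 50 and 49.4% in libraries 1 to 5 after sTBI and 41.2, 44.7, 49.8, 38.8 and 46.1% after mTBI. Its share was 45.0, 38.0, 46.1, 39.0 and 48.8% in sham-operated controls and 40.7, 51.2, 51.7 and 54.8% in naive rats. miR-144-5p thus had more UMIs in 15 of 19 libraries, the 2 strands were level in sTBI 4, and the 3 libraries with more 3p UMIs were all naive. Whether the library preparation captured the 2 strands equally was not tested, so 50% need not mark equal amounts in plasma. These shares rested on 209 to 953 UMIs per library, and the Wilson 95% interval, which covers counting error only, lay below 50% in 10 libraries, above it in 0 and across it in 9. Of the 4 naive libraries, 1 lay below 50% and 3 lay across it.

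**Figure D4:**
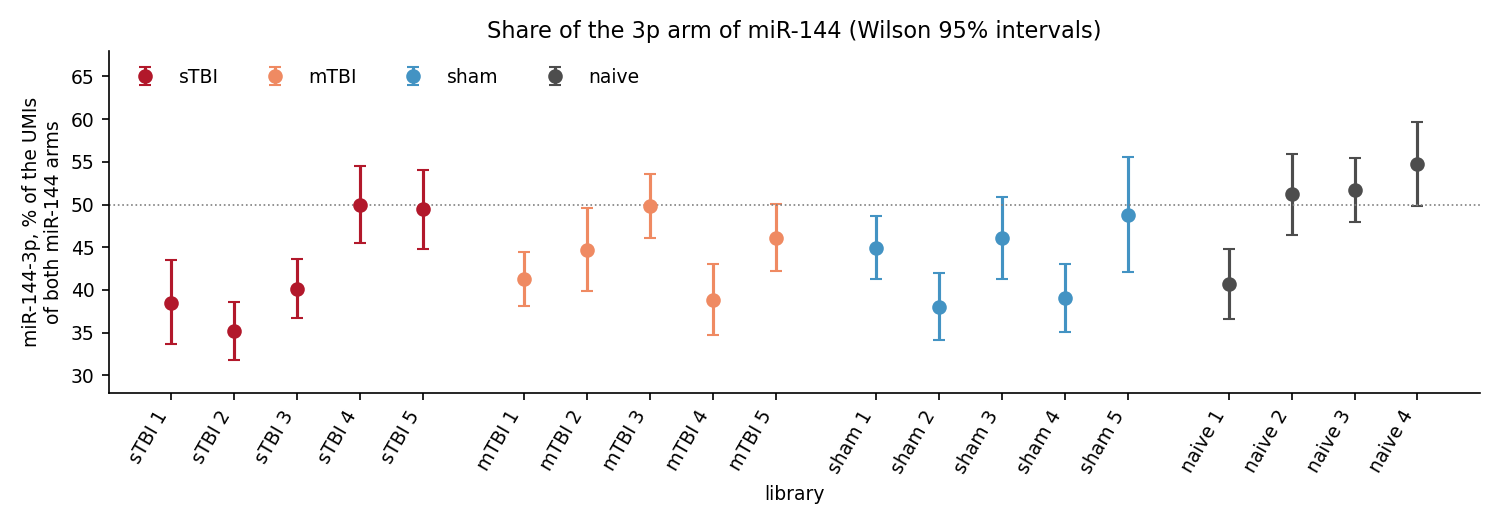
Points are the percent of miR-144 UMIs that came from the 3p strand in each library, with Wilson 95% intervals from the UMI counts; the dotted line marks 50%. The naive libraries reach 54.8%, while the other groups stay at 50% or below.

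The mean share of the 3p strand was 42.6 ± 6.71% after sTBI, 44.1 ± 4.27% after mTBI, 43.4 ± 4.67% in sham-operated controls and 49.6 ± 6.15% in naive rats. On the log2 ratio of 3p to 5p the groups did not pass (permutation test, p = 0.207, adjusted p = 0.539). The differences from naive rats were -0.41 after sTBI (exact permutation test, p = 0.0952), -0.32 after mTBI (exact permutation test, p = 0.159) and -0.36 in sham-operated controls (exact permutation test, p = 0.127), each with adjusted p = 0.635. All 3 comparisons share the same 4 naive libraries, so their like size is not 3 separate observations.

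Across the 19 libraries the 4 miRNAs tended to move together on the CPM scale, with miR-486 the least closely tied. With each expressed as log2 CPM minus its own mean, all 4 were above their means in 6 libraries and all below in 6, and 7 libraries were mixed. By group, all 4 were above in 2 sTBI, 2 mTBI, 2 sham and 0 naive libraries, and all below in 1 sTBI, 2 mTBI, 2 sham and 1 naive library. The closest agreement was in sham 1, whose 4 deviations lay within 0.17, and the widest gap was in naive 3, where they spanned 1.28 with miR-486 lowest.

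**Figure D5:**
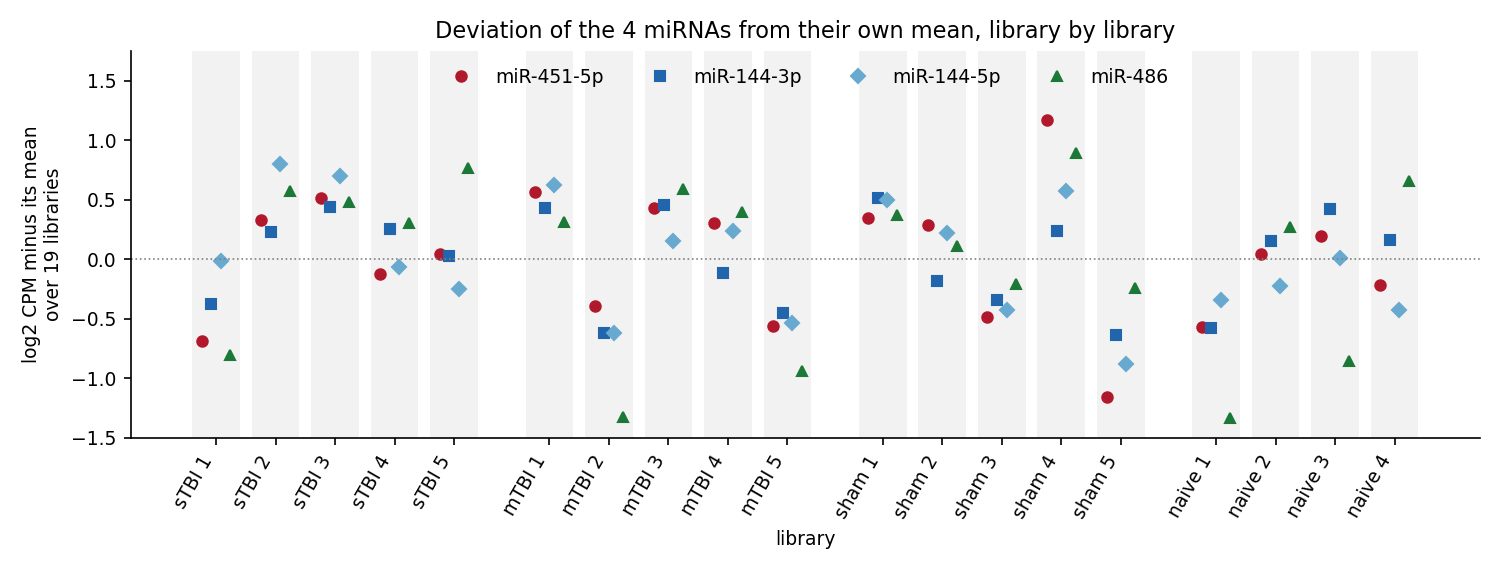
Symbols are the log2 CPM of each miRNA in a library minus its mean over 19 libraries, with 1 shaded strip per library. In naive 1, naive 3, mTBI 2 and mTBI 5 the miR-486 symbol is the lowest of the 4, down to -1.33.

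Pearson's r of log2 CPM was highest between miR-451-5p and miR-144-5p, at 0.84 (Spearman's rho 0.86, permutation p = 2e-05 and 4e-05). miR-451-5p and miR-144-3p had r = 0.78 (rho 0.82, permutation p = 6e-05 and 3e-05), and the strands of miR-144 had r = 0.73 (rho 0.73, permutation p = 0.00043 and 0.00053). miR-486 went less closely with the cluster, with r = 0.65 to miR-451-5p (rho 0.68, permutation p = 0.00235 and 0.0016), 0.68 to miR-144-3p (rho 0.61, permutation p = 0.00155 and 0.00643) and 0.55 to miR-144-5p (rho 0.54, permutation p = 0.0152 and 0.0186). All 6 passed after adjustment over the 6 pairs, the highest adjusted p being 0.0152 for Pearson's r and 0.0186 for Spearman's rho. All 4 values of a library are divided by the same total. Per spike-in UMI, r was 0.90 for miR-451-5p with miR-144-5p, 0.87 for miR-451-5p with miR-144-3p and 0.83 for the strands of miR-144. For miR-486 it was 0.62 with miR-451-5p, 0.50 with miR-144-3p and 0.41 with miR-144-5p. The last of these did not pass (permutation test, adjusted p = 0.0781). The spike-in count is also 1 divisor for all 4 values of a library, so these r can hold a shared part too.

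Without the 2 libraries farthest from the median of the first-named miRNA, r stayed between 0.55 and 0.81, and all 6 pairs passed. Within the 15 libraries that did not stand apart, r was 0.82 for miR-451-5p with miR-144-5p, 0.76 with miR-144-3p and 0.74 with miR-486. There miR-144-3p had r = 0.68 with miR-144-5p and 0.70 with miR-486, while miR-144-5p and miR-486 had r = 0.40, which did not pass (permutation p = 0.137). The 4 libraries that stood apart were too few for a value of their own. As deviations from the group means, the cluster pairs had r = 0.82, 0.88 and 0.77 (miR-451-5p with miR-144-3p, miR-451-5p with miR-144-5p, and the 2 strands), so the shared movement lay between rats of the same group.

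Among the 564 other miRNAs with at least 10 UMIs in every library, the profiles most like each member were found by Pearson's r of log2 CPM (pseudocount 1) over the 19 libraries, as a description with no test. For miR-451-5p they were miR-106b-3p (r = 0.93), miR-93-5p (0.88) and miR-15a-5p (0.83). For miR-144-3p they were miR-18a-5p (0.89), miR-93-5p (0.82) and miR-16-5p (0.79), and for miR-144-5p they were miR-93-5p (0.87), miR-106b-3p (0.77) and miR-15b-3p (0.73). miR-93 and miR-106b come from a cluster in an intron of Mcm7, a replication gene, and miR-15a and miR-16 are transcribed together as well. For miR-486 they were miR-25-5p (r = 0.94), from the same Mcm7 cluster, miR-16-5p (0.93), which miR-144-3p also had among its 3, and miR-484 (0.92). Without the 4 libraries that stood apart, the values for miR-486 were 0.84, 0.87 and 0.74 in the same order. Those for miR-451-5p were then 0.94, 0.88 and 0.88.

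At the opposite ends of the same rankings, the lowest r was that with miR-3591 for miR-451-5p (-0.75) and miR-144-5p (-0.66), and with miR-99b-5p for miR-144-3p (-0.72). miR-122-5p, the dominant miRNA of liver cells, had r = -0.71 with miR-451-5p, -0.62 with miR-144-3p and -0.63 with miR-144-5p, and was among the 3 lowest for each. The lowest r for miR-486 was -0.91 with miR-195-5p, and without the 4 libraries that stood apart it was -0.68. For miR-451-5p and miR-122-5p the value without these libraries was -0.74. miR-122-5p ranged between 18619.8 and 141403 CPM, and these r were not recomputed on a scale without the shared total.

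The other red-cell miRNAs were taken as a list of 22 features written from general knowledge, with earlier results of these data known. Their summed share of the miRNA UMIs was 27.9 ± 3.75% after sTBI, 26.2 ± 6.83% after mTBI, 26.2 ± 3.74% in sham-operated controls and 25.0 ± 5.50% in naive rats. Together with the 4 members the share was 20.8 to 44.7% of a library. Most of it was miR-16-5p and miR-486, which made up 20.0 and 7.28% of all miRNA UMIs. How much of this share came from red cells was not tested. edgeR called 0 of the 22 in each of the 6 comparisons, where it called 0.140 to 4.91% of all 713 miRNAs. At an unadjusted p under 0.05 it called 4 in sTBI (23.6% of all), 0 in mTBI (7.15%) and 3 in sham-operated controls (19.6%), each over naive rats. It called 0 in sTBI (7.57%) and 1 in mTBI (11.4%) over sham-operated controls, and 4 in sTBI over mTBI (17.4%). These counts are no result about the list in themselves. The median log2 fold change of the list over naive rats was -0.31 in sTBI (0.03 over all 713 miRNAs), 0.00 in mTBI (-0.05 over all) and -0.26 in sham-operated controls (0.04 over all). Over sham-operated controls it was -0.05 in sTBI (-0.01 over all) and 0.33 in mTBI (0.02 over all), and in sTBI over mTBI it was -0.31 (0.04 over all). The medians of the 4 members lay between -0.05 (sTBI over mTBI) and 0.10 (mTBI over sham-operated controls).

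The 4 most abundant miRNAs of the list were miR-16-5p, miR-140-3p, miR-25-3p and miR-92a-3p, at 203008 ± 38365, 18172 ± 4278, 16380 ± 4599 and 9329 ± 3052 CPM (SD, n = 19). In sTBI over naive rats their log2 fold changes were -0.17 (SE 0.20, adjusted p = 0.643), -0.28 (SE 0.20, adjusted p = 0.377), 0.04 (SE 0.26, adjusted p = 0.940) and 0.21 (SE 0.25, adjusted p = 0.655), in the same order. Members of the list went with the erythroid miRNAs to unequal extents and not all in the same direction. The median r with the 22 features was 0.52 for miR-451-5p, 0.49 for miR-144-3p, 0.49 for miR-144-5p and 0.36 for miR-486, and over all 564 miRNAs ranked it was 0.07, 0.10, 0.19 and 0.38 for the same 4. miR-16-5p had the highest r of the list with miR-486, and miR-93-5p the highest with each of the other 3. The r was positive for 18, 16, 17 and 18 of the 22 features, members in the order above. Over all 564 miRNAs ranked it was positive for 62.4, 63.5, 72.9 and 72.3%. miR-101b-3p had the lowest r of the list with each member, at -0.52, -0.47, -0.52 and -0.88. With miR-486, miR-22-3p had r = -0.86.

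Since miR-486 is also a muscle miRNA, the striated muscle list (miR-1-3p, miR-206-3p, miR-499-5p, miR-208b-3p, and miR-133a-3p with miR-133b-3p as 1 feature) was read beside it. Earlier results of these data were known when this list was chosen too. The list's summed share was 0.181 to 0.234% of the miRNA UMIs after sTBI, 0.263 to 0.632% after mTBI, 0.236 to 1.01% in sham-operated controls and 0.0368 to 0.137% in naive rats, so every operated library lay above every naive one. edgeR called 1 of the 5 higher in sTBI over naive rats, where it called 4.91% of all 713 miRNAs in either direction. It called 3 of 5 higher both in mTBI and in sham-operated controls over naive rats (2.38% of all in each). In sTBI over mTBI 1 of 5 was called lower (3.23% of all). Over sham-operated controls 0 of 5 were called in sTBI (2.10% of all) and in mTBI (0.140%). In each comparison over naive rats 1 of the 5, miR-499-5p, had a negative log2 fold change, which did not pass. The list's largest summed share was far below the 2.74 to 12.8% of miR-486, whose own fold changes in these comparisons did not pass. The part of muscle in the level of miR-486 was not tested. In the other lists, edgeR called 0 of 7 leukocyte and 0 of 6 platelet miRNAs in each comparison, beside 0.140 to 4.91% of all. It called 1 of 4 liver miRNAs lower in sTBI over naive rats (4.91% of all in either direction).

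Spike-in RNAs, synthetic RNAs counted in the same libraries, gave a scale that does not depend on the other miRNAs. Per 1000 spike-in UMIs, miR-451-5p averaged 12.5 ± 4.52 UMIs after sTBI, 19.2 ± 3.48 after mTBI, 16.7 ± 9.64 in sham-operated controls and 17.3 ± 9.04 in naive rats (SD, n = 5, 5, 5 and 4). Sham 5 had the fewest at 4.40 and naive 3 the most at 30.6. miR-486 averaged 588 ± 220, 634 ± 199, 642 ± 251 and 566 ± 179 UMIs in sTBI, mTBI, sham and naive libraries. The 4 libraries that stood apart had 349 to 573 miR-486 UMIs on this scale, with a median of 459, and the other 15 had 262 to 945, with a median of 655. None of the members passed over the 4 groups (Kruskal-Wallis statistic tested by permutation, p = 0.287 for miR-451-5p, 0.343 for miR-144-3p, 0.887 for miR-144-5p and 0.965 for miR-486, lowest adjusted p = 0.686).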

How the data were processed

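Plasma small RNA libraries (QIAseq miRNA kit, 75-base single reads) came from 19 rats. Per the labels and the study's methods, the authors trimmed reads with cutadapt, aligned them with Bowtie (Rnor_6.0; miRBase for mature miRNAs) and deposited read counts and UMI counts per feature with no normalization. Of that table, the 104 piRNA features and 1 row naming no gene were left out. The spike-in counts were used, and the tRNA and other RNA tables were not used here. Groups came from the sample labels.

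UMI counts of 713 of 748 miRNAs (filterByExpr, minimum count 10) were fitted in edgeR 4.0.16 (R 4.3.3) with TMM factors, robust quasi-likelihood and 15 residual degrees of freedom, and p-values were adjusted by Benjamini-Hochberg. DESeq2 1.42.0, other scalings, read counts, no filter, a replicate block, fits of 2 groups and left-out libraries were alternatives. The procedure was tested on simulated data. Ratios and spike-in scaled values were tested by permutation in scipy 1.17.1. Hairpin folds were predicted with ViennaRNA 2.7.2. Replicates are rats, so p-values measure the spread between animals sampled once. Named were the 4 members, miR-23a-3p, miR-28-3p and miR-103-3p (counted with miR-107-3p) as references, the 3 miRNAs most like each member, and red-cell list members called or else the 4 most abundant. Other names were chosen after their values were seen. The members and lists were chosen with earlier results of these data known. Hemolysis coefficients and qPCR values were not analysed here.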

Additional observations from a re-analysis of the deposited data

Results flagged for a closer look

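Of 48 sets of 4 or 5 libraries of 1 group examined for a library far from the rest, 1 had such a library, where chance alone gives about 1 in 20. Naive 3 had 1.32 miR-144-3p UMIs per 1000 spike-in UMIs, and the other 3 naive libraries had 0.486 to 0.561. Its gap to the nearest library was 0.91 of the group's range, above Dixon's 95% critical value for 4 samples. On the CPM scale the same library had 88.0 CPM, with the other naive libraries at 44.0 to 73.6. It is one of the 4 libraries that stood apart, with 15.0 miRNA UMIs per spike-in UMI, and whether the yield of the library has a part in the value was not tested.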

How the results depend on the processing

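Across 29 alternatives, 0 of 696 recomputed fold changes of the 4 miRNAs passed, with a lowest adjusted p of 0.237, and 69 took the opposite sign, none with a main log2 fold change beyond 0.30 in size. The lowest adjusted p for any difference among the 4 groups was 0.444. Calls among all miRNAs moved more, from 11 (without the 4 libraries that stood apart) to 68 (DESeq2) in sTBI over naive rats (35 in the main test), from 3 to 17 in mTBI over naive rats (17) and from 0 to 47 in sham-operated controls over naive rats (17). They ran from 6 to 23 in sTBI over sham-operated controls (15), 0 to 5 in mTBI over sham-operated controls (1) and 10 to 33 in sTBI over mTBI (23). Leaving out naive replicate 1, 2, 3 or 4 gave 15, 64, 17 and 57 calls in sTBI over naive rats. Replicate numbers did not pair the rats (correlations of same-numbered libraries from -0.437 to 0.349). With the replicate block 0 members were called in each comparison, and the calls among all miRNAs were 22 in sTBI and 11 in sham-operated controls, both over naive rats. Spike-in totals moved the median over all miRNAs to -0.27 in sTBI over mTBI (0.04 with TMM), where miR-451-5p stood at -0.61. The correlation of miR-144-5p with miR-486 no longer passed with TMM-scaled CPM (r = 0.38), per spike-in UMI (0.41) or without the 4 libraries that stood apart (0.40), and that of miR-144-3p with miR-486 did not pass by Spearman's rho per spike-in UMI (rho 0.43, permutation test, adjusted p = 0.0837). The cause was not tested. Set against miR-28-3p, or against miR-103-3p with miR-107-3p as 1 feature, in place of miR-23a-3p, the miR-451-5p ratio did not pass over the 4 groups (permutation tests, adjusted p = 0.761 and 0.726). The feature of miR-103-3p with miR-107-3p is itself on the red-cell list and had r = 0.46 with miR-451-5p. Its ratio could therefore miss a difference shared by both. Depth limits miR-144 most, at 102 to 560 UMIs per strand.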
